A study of Homo sapiens with 17 samples.

Results

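The nuclear factor NF-kappaB is a family of dimeric transcription factors. The genes described here encode 4 of its subunits (RELA, RELB, NFKB1, NFKB2) and 5 proteins grouped here as its inhibitors (NFKBIA, NFKBIB, NFKBIE, NFKBIZ, TNFAIP3). Whether each of these 5 restrains NF-kappaB in these cells was not measured. The genes were taken by symbol, and all 9 were found among the 19222 genes of the 1 h table. HEK-293T cells, a human embryonic kidney line, were incubated for 1 h with 500 µM s4U and 1.8 µM emetine (3 libraries) or with 500 µM s4U and no emetine (3 libraries), and 1 library of each kind came from cells given no s4U. Emetine blocks the movement of ribosomes along mRNA. s4U is a uridine analog that enters RNA made during the incubation and is read as a T-to-C conversion after TimeLapse chemistry. In a separate 2 h experiment, cells with 250 µM s4U were untreated or received 1.8 µM or 240 µM emetine (3 libraries each), and only the authors' mean level per gene over those libraries was used here.

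In resting cells, NF-kappaB dimers are held in the cytoplasm by IkappaB proteins. Signals from cytokine receptors activate the IkappaB kinase (IKK) complex, IkappaB is degraded, and the freed dimers bind kappaB sites in DNA. Several of the induced genes encode inhibitors, so the pathway restrains itself, and the best-known loop needs new IkappaB alpha protein. Because that loop runs through translation, drugs that block protein synthesis are a classical tool for studying it, and mRNAs of this pathway are known for rapid decay.

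Matches to the kappaB site in the promoters of these genes are shown first, since such sites can tie a gene to the factor. RefSeq promoter sequences on GRCh38.p14 were present for 7 of the 9 genes, with 13 start sites in all. NFKBIE and RELB had no entry. The 10-base kappaB consensus was searched on both strands in the 250 bases before each start. A match lay in 8 of these 13 promoters and in 6 of the 7 genes, all but RELA, against 5.21% of 35116 promoters of all genes. Each sequence below runs 5′ to 3′ on the strand of its gene, and the capitals mark the match.
NFKBIA (chr14:35404811-35404840, minus strand): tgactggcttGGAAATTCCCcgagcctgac
NFKBIB (chr19:38899931-38899960, plus strand): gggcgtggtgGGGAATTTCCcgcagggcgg
NFKBIZ (chr3:101827757-101827786, plus strand): tttttggtctGGGAATTTCCagtgtgcaga
TNFAIP3 (chr6:137867182-137867211, plus strand): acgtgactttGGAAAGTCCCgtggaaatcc
TNFAIP3 (chr6:137867194-137867223, plus strand): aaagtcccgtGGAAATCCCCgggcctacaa
NFKB1 (chr4:102501300-102501329, plus strand): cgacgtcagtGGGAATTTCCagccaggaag
NFKB2 (chr10:102395674-102395703, plus strand): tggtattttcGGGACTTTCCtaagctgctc
The windows shown for TNFAIP3 overlap, but their matches do not, lying 67 to 58 and 55 to 46 bases before the start. NFKB2 had 5 matches over its start sites, 2 of them overlapping by all but 1 base, and the one nearest to a start is shown. NFKBIB had 2 that overlap by all but 1 base. NFKBIZ had 1 match at each of 2 start sites, of which the one nearer to its start is shown. Such a match is a stretch of letters and not a measured binding site.

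A mark of short-lived mRNAs is the AU-rich element of the 3′ untranslated region (UTR), and the nonamer-like core TATTTAT was therefore counted in the same strand of the 3′UTRs of the GENCODE 44 transcripts. It was found in NFKBIA and TNFAIP3, 2 times each, and in none of the other 7 genes, against 31.5% of 19550 3′UTRs. The capitals mark the core in 1 site of each gene.
NFKBIA (chr14:35401699-35401727, minus strand): accacattttaTATTTATtgtgcttcgag
TNFAIP3 (chr6:137882298-137882326, plus strand): gtaattcacttTATTTATtttattacaaa
The 3′UTR of NFKBIA is 500 bases long and that of TNFAIP3 is 1993 bases. NFKBIZ, with a 3′UTR of 1651 bases, held the shorter ATTTA 3 times and no TATTTAT. The shorter motif was also found 3 times in NFKBIA, 5 times in TNFAIP3, 3 times in the 708 bases of NFKB1 and 1 time in the 148 bases of NFKB2, which per kb is the most of the 9 genes, and in none of the other 4.

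The 8 libraries of the 1 h experiment held 27416189 to 48852046 reads, of which 81.1% to 82.3% were given to a gene. No pair of replicates agreed within sampling noise. Emetine replicate 3 stood apart. Its log2 deviation from its group mean had an SD of 0.27 over 13067 genes, against 0.11 to 0.13 in the untreated libraries, and across genes, which are not independent replicates, it had a Spearman correlation of 0.723 with transcript length. Levels are given as CPM, a gene's reads scaled to the effective size of the library. All 7 markers of HEK-293T cells were detected in every library. Of 6 leukocyte markers, PTPRC and CD3E were not listed in the table, and the summed level of the others was 1.54 to 3.11 CPM, against 772 to 1062 CPM for the HEK-293T markers. Nothing in the labels says that replicates came from separate cultures, so p-values measure the spread between these libraries. In bulk RNA, fewer cells with a transcript and less transcript per cell cannot be told apart.

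Per base of transcript, RELA and NFKBIB were the most abundant of the 9 mRNAs in untreated cells. RELA, the subunit that carries the transactivation domain of the classical dimer, stood at 50.4 ± 1.04 CPM per kb (SD, n = 3), and NFKBIB, which encodes IkappaB beta, at 45.6 ± 0.486. NFKBIA, which encodes IkappaB alpha, was at 18 ± 0.956 CPM per kb. The precursor subunits NFKB2 (p100) and NFKB1 (p105) followed at 7.29 ± 0.382 and 6.70 ± 0.105, and NFKBIE, which encodes IkappaB epsilon, at 5.68 ± 0.378. RELB, the partner of p52 in the alternative pathway, was at 1.4 ± 0.131. TNFAIP3, which encodes the ubiquitin-editing enzyme A20, was at 0.955 ± 0.0657, and NFKBIZ, which encodes the nuclear protein IkappaB zeta, was lowest at 0.748 ± 0.0610. The untreated libraries of no neighbors in this order overlapped. The pair closest in relative terms was NFKB2 and NFKB1, whose lowest and highest untreated libraries were 6.88 and 6.77 CPM per kb. In the 2 h tables, 6 of the 9 genes were listed among 9982. The 2 h libraries include both emetine doses, and the paper describes a total RNA kit for them and an mRNA kit at 1 h. The authors' mean over all of them, per gene and not per length, was 760 normalized counts for NFKB1, 634 for RELA and 543 for NFKBIA. It was 279 for NFKB2, 265 for NFKBIZ and 234 for NFKBIB, and the median listed gene had 845. These means are therefore not untreated levels. NFKBIE, TNFAIP3 and RELB were not listed there.

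The read counts behind these levels differed widely. RELA had 2702 to 5172 reads per library and NFKBIB 1163 to 1960. NFKBIA had 557 to 1082 reads, NFKB1 581 to 1088, NFKB2 440 to 841 and NFKBIE 268 to 632. TNFAIP3 had only 101 to 228 reads, NFKBIZ 64 to 183 and RELB 48 to 103, so smaller differences were not detectable for them at this depth.

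The share of converted reads differed widely between the genes. Of 2372 NFKBIA reads in the 3 untreated libraries, 77.8% carried at least 2 conversions, up to 15 in a read, and 10.9% carried none. For NFKBIZ, 82.0% of 244 reads carried at least 2, and for TNFAIP3 64.3% of 370. The share was 25.1% for NFKBIE, 17.1% for NFKB1, 11.7% for RELB, 11.6% for RELA, 8.51% for NFKBIB and 3.06% for NFKB2. In the libraries without s4U, 9 of all 15778 reads of the 9 genes had 2 conversions and none had more.

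The fraction new of a gene is the estimated share of its reads that come from RNA made during the hour with s4U. Old and new reads, with a background and a higher conversion rate, were fitted to its reads, with 95% profile-likelihood intervals that cover counting error only, since no molecular identifiers are described. In untreated replicates 1, 2 and 3, the fraction new of NFKBIA was 94.5% (interval 92.2% to 96.5%), 95.7% (93.9% to 97.2%) and 96.0% (93.4% to 98.1%). That of NFKBIZ was 93.9% (86.6% to 98.4%), 90.0% (81.9% to 95.8%) and 94.2% (85.7% to 98.8%). That of TNFAIP3 was 77.9% (69.3% to 85.4%), 70.9% (62.7% to 78.3%) and 81.7% (72.2% to 89.6%). The mRNAs of these 3 genes therefore consisted largely of RNA less than 1 h old. The median gene of 10763 had a fraction new of 12.2%.

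Means over the untreated libraries placed NFKBIA at 95.4% ± 0.764 (SD, n = 3), NFKBIZ at 92.7% ± 2.35 and TNFAIP3 at 76.8% ± 5.49, above 99.9%, 99.9% and 99.2% of the 10763 genes that had 100 reads or more in every library. NFKBIE followed at 34.3% ± 2.91, above 88.4% of genes. The remaining IkappaB gene of the classical kind, NFKBIB, was at 13.1% ± 1.30, above 53.7% of genes. Among the subunits, NFKB1 stood at 22.1% ± 3.90, RELB at 20.4% ± 11.3, RELA at 15.8% ± 4.20 and NFKB2 at 6.45% ± 3.37. NFKB2 was thus the member with the least new RNA, below the median gene, and RELB, with 72 to 98 untreated reads, had the widest spread.

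If levels were steady and labeling began with the hour, these fractions correspond to decay half-lives. The median over untreated libraries was 0.221 h for NFKBIA (0.216 to 0.238 h), 0.248 h for NFKBIZ (0.243 to 0.301 h) and 0.459 h for TNFAIP3 (0.408 to 0.562 h). It was 1.61 h for NFKBIE, 2.68 h for NFKB1, 3.86 h for RELB, 4.4 h for RELA, 4.77 h for NFKBIB and 12.7 h for NFKB2, beside 5.35 h for the median gene. The untreated libraries ranged from 6.41 to 17.9 h for NFKB2 and from 1.72 to 5.65 h for RELB, so these values are poorly fixed. Emetine-treated cells need not be at steady state, and no half-lives are given for them.

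**Figure D1:**
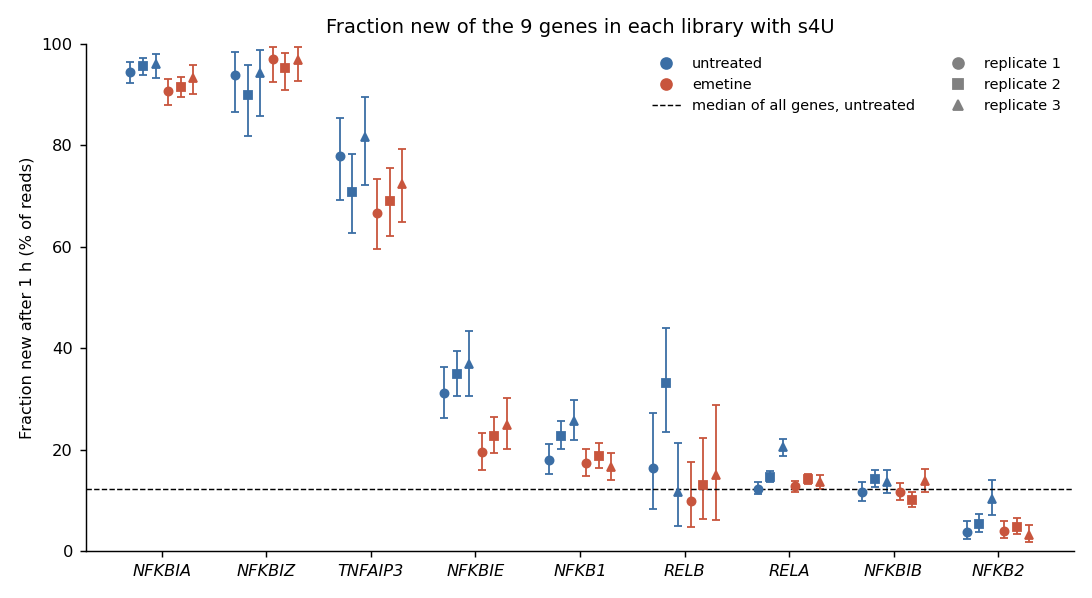
Fraction new (percent of reads, vertical axis) of each gene in the 3 untreated (blue) and 3 emetine libraries (red), with 95% profile-likelihood intervals, genes ordered by their untreated mean; the dashed line is the untreated median of 10763 genes, 12.2%. NFKBIA, NFKBIZ and TNFAIP3 sit above 66% in every library, and NFKB2 lies below the line in all 6.

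The next question was whether blocking translation changed these mRNAs. Levels were compared between 3 emetine and 3 untreated libraries with edgeR's quasi-likelihood test over 13776 genes, with Benjamini-Hochberg adjustment. None of the 9 genes passed an adjusted p of 0.05, while 2.65% of all genes tested were higher and 0.0436% were lower past that threshold. At an unadjusted p under 0.05 there were 2 of 9, NFKBIZ and TNFAIP3, both higher, beside 2056 genes higher and 958 lower of all 13776. DESeq2's Wald test also called 0 of 9. With trends on transcript length and GC content removed, the calls over all genes split into 747 higher and 527 lower in place of 365 and 6. The median log2 fold change was 0.004 for the 9 genes and 0.03 for all genes tested, with 5 estimates above 0 and 4 below.

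NFKBIA measured 26.8, 29.7 and 27.7 CPM in untreated replicates 1 to 3 and 23.3, 27 and 20.9 CPM in emetine replicates 1 to 3. The groups overlapped, and 2 of the 3 emetine libraries lay below every untreated one. The log2 fold change was -0.24 (SE, the standard error, 0.12, adjusted p = 0.258). NFKBIB measured 53.7, 54.4 and 54.9 CPM untreated and 51.0, 48.9 and 45.0 CPM with emetine. Its groups did not overlap, which 15.2% of all genes showed in that direction, and its log2 fold change was -0.17 (SE 0.086, adjusted p = 0.272). NFKBIE measured 13, 14.3 and 12.6 CPM untreated against 16.3, 15.8 and 13.1 CPM, with 1 emetine library among the untreated ones and a log2 fold change of 0.18 (SE 0.13, adjusted p = 0.413).

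The low-abundance mRNAs of NFKBIZ and TNFAIP3 had the most positive estimates. NFKBIZ measured 3.12, 2.66 and 3.02 CPM in untreated and 3.91, 3.94 and 6.86 CPM in emetine replicates 1 to 3. Every emetine library lay above every untreated one, and emetine replicate 3 was 1.75 times the mean of the other emetine libraries. The log2 fold change was 0.73 (SE 0.25, adjusted p = 0.164), and 0.43 (adjusted p = 0.142) without emetine replicate 3. TNFAIP3 measured 4.44, 4.15 and 4.76 CPM untreated and 6.51, 5.39 and 7.80 CPM with emetine. Its groups did not overlap either, as for 19.5% of all genes in that direction. The log2 fold change was 0.56 (SE 0.18, adjusted p = 0.146), and 0.43 (adjusted p = 0.0935) without emetine replicate 3.

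Of the subunits, RELA measured 124, 129 and 127 CPM untreated and 129, 129 and 120 CPM with emetine, a log2 fold change of -0.01 (SE 0.081, adjusted p = 0.939). RELB measured 3.12, 2.81 and 3.40 CPM against 2.94, 2.10 and 1.80 CPM, with overlapping groups and a log2 fold change of -0.44 (SE 0.23, adjusted p = 0.283). NFKB1 measured 26.7, 27.5 and 27.4 CPM against 27.4, 27.1 and 35.1 CPM. The highest value belonged to emetine replicate 3, without which the log2 fold change of NFKB1 fell from 0.14 to 0.008. NFKB2 measured 22.1, 23.0 and 20.8 CPM against 22.2, 21.0 and 23.0 CPM, and the groups overlapped fully (log2 fold change 0.004, SE 0.10, adjusted p = 0.984).

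**Figure D2:**
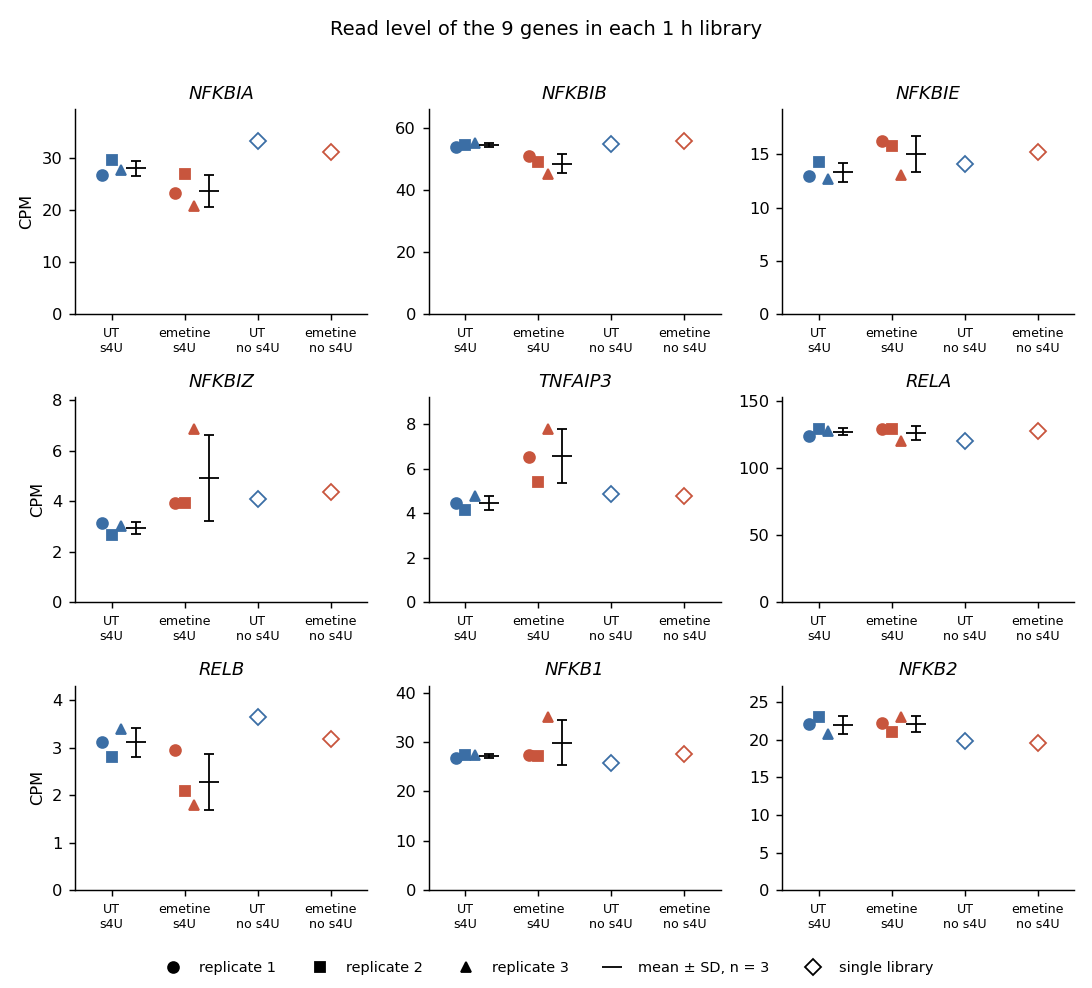
Level in CPM (vertical axes, starting at 0) of each gene in the 8 libraries of the 1 h experiment, with untreated in blue, emetine in red, open diamonds for the single libraries without s4U, and bars for mean ± SD of 3 libraries. Emetine replicate 3 (triangle) is the highest emetine library for NFKBIZ, TNFAIP3, NFKB1 and NFKB2 and the lowest for NFKBIA, NFKBIB, NFKBIE, RELA and RELB.

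The position of emetine replicate 3 went with transcript length among these genes too. Its ratio to the mean of emetine replicates 1 and 2 was 1.75 for NFKBIZ (3923 bases), 1.31 for TNFAIP3 (4665 bases), 1.29 for NFKB1 (4055 bases) and 1.07 for NFKB2 (3015 bases), and below 1 for the 5 genes of 1192 to 2517 bases. The lowest ratio was 0.715 for RELB. With a smooth trend of each library on length and GC content removed, the log2 fold change was 0.60 for NFKBIZ (adjusted p = 0.0966), 0.43 for TNFAIP3 (adjusted p = 0.0882) and -0.14 for NFKBIA (adjusted p = 0.284), while that of NFKBIB turned from -0.17 to 0.025.

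**Figure D3:**
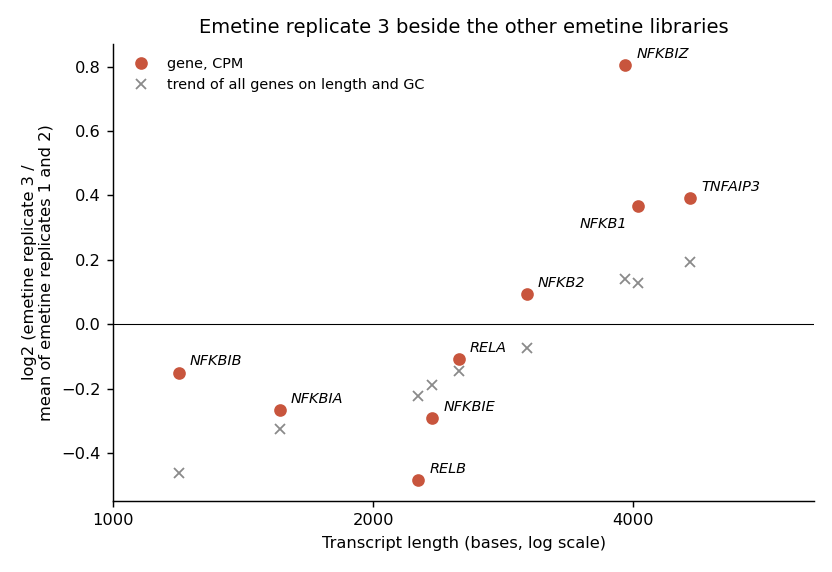
log2 ratio of emetine replicate 3 to the mean of emetine replicates 1 and 2 (vertical axis) against transcript length in bases (horizontal, log scale) for the 9 genes (circles), with the trend of all genes on length and GC content at each gene's values (crosses). The 4 genes of 3015 bases or more lie above 0 and the 5 shorter ones below, and NFKBIZ lies farthest above its cross, at 0.81 against 0.14.

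Normalization to library size cannot show a change shared by all genes. When the libraries were scaled by their spike-in reads instead, the median log2 fold change of all genes moved to 0.71, and the direction of NFKBIA, NFKBIB, RELA and RELB changed to 0.39, 0.51, 0.66 and 0.29. Relative to that median these 4 genes still lay below 0, and NFKBIZ (1.45) and TNFAIP3 (1.29) above it. The changed directions did not pass in edgeR (adjusted p = 0.463 for NFKBIA, 0.370 for NFKBIB, 0.290 for RELA and 0.597 for RELB). Spike-in shares of reads were 0.667%, 0.480% and 0.728% in untreated replicates 1 to 3. They were 0.304%, 0.666% and 0.408% in emetine replicates 1 to 3, so the groups overlapped. The paper describes spike-ins added by cell count for the 2 h libraries only. A change shared by all genes was therefore not established.

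New and old RNA were then compared separately. The fraction new was tested with limma on the logit scale for those 7 of the 9 that had 100 reads or more in every library, among 10763 such genes. None passed an adjusted p of 0.05 in either direction, beside 4.83% of all genes lower and 0.214% higher. Centering each library on its median changed the calls over all genes from 23 higher and 520 lower to 126 and 748. All 7 estimates were negative, with a median of -0.40 against -0.16 for all genes tested. At an unadjusted p under 0.05 there were 2 of 7, NFKBIA and NFKBIE, both lower, beside 1655 genes lower and 124 higher of all 10763.

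NFKBIE was nearest to the threshold. Its fraction new was 31.1%, 35.0% and 36.8% in untreated and 19.5%, 22.7% and 24.9% in emetine replicates 1 to 3, so no emetine library reached an untreated one, as for 16.8% of all genes. The difference in logit was -0.60 (SE 0.21, adjusted p = 0.0863 from limma). NFKBIA had a fraction new of 90.7%, 91.6% and 93.2% with emetine, each below its 3 untreated values, and a difference of -0.61 (SE 0.30, adjusted p = 0.294). Without untreated replicate 1, both genes and NFKB1 passed, at adjusted p = 0.0118 for NFKBIE, 0.0284 for NFKBIA and 0.0476 for NFKB1, and the fraction new called lower then numbered 2524 genes in place of 520.

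TNFAIP3 had 66.6%, 69.1% and 72.4% with emetine against 70.9% to 81.7% untreated, overlapping groups, and a difference of -0.40 (adjusted p = 0.498). NFKBIZ was the only gene of the 9 whose fraction new was higher in every emetine library than in every untreated one. It stood at 97%, 95.3% and 96.9% against 90.0% to 94.2%. Of the 10763 genes with 100 reads or more in every library, 2.19% showed this. NFKBIZ is not in that set, and the share among genes of its depth was not computed. It fell short of 100 reads, and with a minimum of 50 reads its difference was 0.73 (SE 0.33, adjusted p = 0.293). For NFKB1 the emetine values were 17.4%, 18.8% and 16.6%, for RELA 12.7%, 14.1% and 13.6%, for NFKBIB 11.6%, 10.0% and 13.8% and for NFKB2 3.95%, 4.67% and 3.16%, all overlapping their untreated values.

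The level of each gene was split by its fraction new into labeled reads and unlabeled reads, the latter being RNA already present before the hour. Both were compared with limma on log2(CPM + 0.5), which understates changes of low values. Labeled reads of none of 7 genes passed (0 at an unadjusted p under 0.05), beside 0.26% of all genes higher and 0.632% lower. Unlabeled reads of none of 7 passed, beside 7.3% higher and 0.0929% lower. At an unadjusted p under 0.05 there were 2 of 7, TNFAIP3 and NFKBIE, both higher, beside 2091 genes higher and 760 lower of all 10763. Of the 7 estimates for unlabeled reads 6 were above 0, with a median of 0.21 against 0.04 for all genes tested.

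Unlabeled TNFAIP3 came closest of all comparisons. It measured 0.981, 1.21 and 0.873 CPM in untreated and 2.18, 1.67 and 2.16 CPM in emetine replicates 1 to 3, so that every emetine library lay above the untreated ones, as for 23.9% of all genes. The log2 fold change was 0.72 (SE 0.19, adjusted p = 0.0522 from limma), and over the alternatives the adjusted p ranged from 0.0505 to 0.184. Labeled TNFAIP3 measured 3.46, 2.94 and 3.89 CPM against 4.33, 3.72 and 5.65 CPM, with overlap (log2 fold change 0.36, adjusted p = 0.647).

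NFKBIE combined fewer labeled with more unlabeled reads. Labeled reads measured 4.03, 5.01 and 4.65 CPM untreated and 3.17, 3.58 and 3.25 CPM with emetine, and unlabeled reads 8.94, 9.31 and 7.99 CPM against 13.1, 12.2 and 9.84 CPM. Neither pair of groups overlapped. Of the 9 genes, 4 had labeled reads lower in every emetine library (NFKBIA, NFKBIB, NFKBIE and RELB) and 1 higher (NFKBIZ). Unlabeled reads were higher in 3 (NFKBIE, TNFAIP3 and NFKB1) and lower in 1 (NFKBIB). Of the 10763 genes with enough reads for the test of fraction new, 11.3% had labeled reads lower and 3.31% higher. For unlabeled reads, 23.9% of them were higher and 16.2% lower. RELB and NFKBIZ are not in that set, and the shares among genes of their depth were not computed. The log2 fold changes of NFKBIE were -0.40 (SE 0.26, adjusted p = 0.582) for labeled and 0.39 (SE 0.15, adjusted p = 0.150) for unlabeled reads. Without emetine replicate 3 the latter was 0.51 with adjusted p = 0.0173 from limma, and genes called higher in unlabeled reads then numbered 1476 in place of 786. Labeled NFKBIA measured 25.3, 28.4 and 26.6 CPM against 21.1, 24.7 and 19.5 CPM, no emetine library reaching an untreated one (log2 fold change -0.30, adjusted p = 0.647). Its unlabeled reads were few, at 1.46, 1.28 and 1.11 CPM against 2.16, 2.28 and 1.41 CPM (log2 fold change 0.44, adjusted p = 0.201).

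For NFKBIZ, nearly all of the difference in level was in labeled reads, which measured 2.93, 2.40 and 2.85 CPM untreated and 3.79, 3.76 and 6.65 CPM with emetine. Its unlabeled reads stayed between 0.118 and 0.266 CPM in all 6 libraries. Tested without the minimum of reads, over 15466 genes, labeled NFKBIZ had a log2 fold change of 0.66 (SE 0.26, adjusted p = 0.365) and unlabeled NFKBIZ -0.08 (adjusted p = 0.777). Labeled RELB measured 0.513, 0.930 and 0.392 CPM against 0.291, 0.271 and 0.271 CPM, values that rest on 7.22 to 32.5 estimated new reads per library. In the subunits, the unlabeled reads of NFKB1 measured 21.9, 21.2 and 20.4 CPM against 22.6, 22.0 and 29.3 CPM, and those of RELA 101 to 110 CPM against 103 to 112 CPM.

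**Figure D4:**
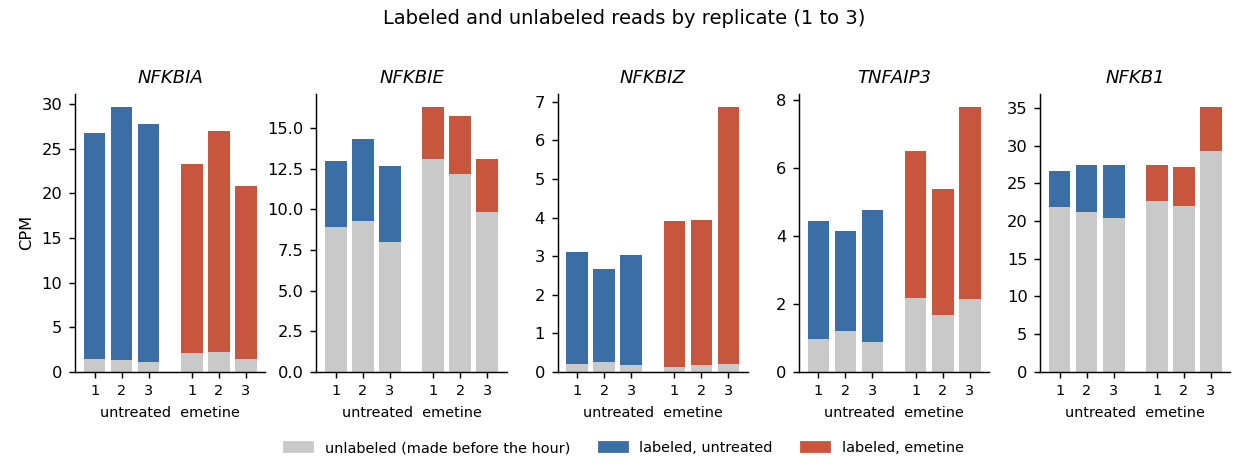
Stacked bars of unlabeled (grey) and labeled reads (blue untreated, red emetine) in CPM, from 0, for 5 genes in each of the 6 libraries with s4U. Labeled reads fill nearly the whole bar of NFKBIA and NFKBIZ, and the grey part of TNFAIP3 is between 0.873 and 1.21 CPM in untreated and between 1.67 and 2.18 CPM in emetine libraries.

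**Figure D5:**
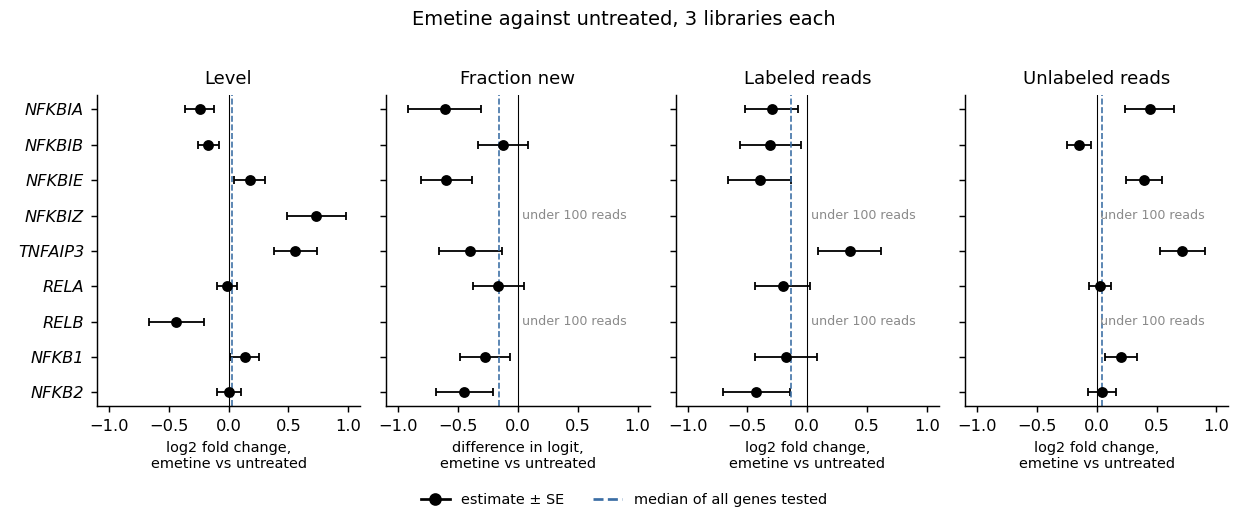
Estimates ± SE (horizontal axes, log2 fold change or difference in logit, emetine against untreated, 3 libraries each) for the 9 genes in the tests of level, fraction new, labeled and unlabeled reads, with the median of all genes tested as a dashed line. No estimate passed an adjusted p of 0.05, and all 7 of fraction new lie left of 0.

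The balance of inhibitor to subunit within a library does not depend on the scaling of libraries, but it does carry any trend on transcript length. NFKBIA reads per RELA read were 0.216, 0.230 and 0.218 in untreated and 0.181, 0.209 and 0.175 in emetine replicates 1 to 3, a difference in mean of -0.033. NFKBIA reads per NFKB1 read were 1.00, 1.08 and 1.01 against 0.849, 0.994 and 0.594, a difference of -0.22. Without emetine replicate 3 the difference per NFKB1 read was -0.11, and the length and GC trend of that library, against the other emetine libraries, was -0.33 on the log2 scale for NFKBIA and 0.13 for NFKB1. In both ratios every emetine library was below every untreated one (two-sided exact permutation test, p = 0.1 each, the smallest that 3 libraries against 3 allow). Without s4U the ratios were higher, at 0.280 untreated and 0.246 with emetine per RELA read, and 1.30 and 1.14 per NFKB1 read.

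In the single libraries without s4U, the levels of emetine over untreated were close to 1 for all 9 genes, from 0.871 for RELB to 1.08 for NFKBIE. TNFAIP3 measured 4.88 CPM untreated and 4.78 CPM with emetine there, and NFKBIZ 4.07 and 4.34 CPM, so the differences seen with s4U had no counterpart in this pair. Both untreated values lay above the untreated libraries with s4U, at 4.15 to 4.76 CPM for TNFAIP3 and 2.66 to 3.12 CPM for NFKBIZ. That of NFKBIZ was also above emetine replicates 1 and 2 with s4U (3.91 and 3.94 CPM), and that of TNFAIP3 below all emetine libraries with s4U. The difference between the effects with and without s4U was tested in edgeR over 8 libraries and 14102 genes. It passed for 0 of 9 genes, with a smallest unadjusted p of 0.139 (TNFAIP3, log2 difference 0.59, SE 0.36), and 0% of all genes passed in either direction, while 509 were higher and 88 lower at an unadjusted p under 0.05. With 1 library per group without s4U, smaller differences were not detectable. NFKBIA was at 33.4 CPM untreated without s4U, above all 6 libraries with s4U, and 31.2 CPM with emetine.

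Other genes of the pathway were described from lists chosen with earlier results of these data known. Of 22 receptors and adaptors in the table, 17 were tested for level. Of these, 1 passed the threshold as higher and none as lower, beside 2.65% and 0.0436% of all genes. Of the 17 estimates 10 were above 0, where the median of all genes tested was 0.03. The gene that passed, TRAF6, encodes a ubiquitin ligase that links Toll-like and interleukin-1 receptors to the kinases. It rose from 19.0 ± 0.481 to 32.0 ± 1.61 CPM (SD, n = 3 each), a log2 fold change of 0.75 (SE 0.096, adjusted p = 0.00863 from edgeR). Its fraction new was 38.6% to 51.6% untreated and 30.1% to 31.6% with emetine, and its unlabeled reads rose by a log2 fold change of 1.09 (adjusted p = 0.00229 from limma). Leaving out any untreated library gave an adjusted p of 0.0731 to 0.0904 for its level. For fraction new 1 of 12 receptors and adaptors tested passed as lower, beside 4.83% of all genes. It was TRAF2, an adaptor of tumor necrosis factor receptors, whose fraction new fell from 20.2% ± 6.64 to 10.9% ± 0.994 (adjusted p = 0.0398 from limma). The adjusted p of TRAF2 rose to between 0.116 and 0.275 when untreated replicate 2 or 3 or any emetine library was left out, and it was 0.108 with a minimum of 50 reads and 0.0578 with conversion rates common to all libraries.

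All 10 IKK and upstream kinase genes had level estimates above 0, with a median of 0.22 against 0.03 for all genes tested. The share of all genes with an estimate above 0 was not computed. Emetine libraries spread widely for TAB2 (85.9 ± 15.4 CPM, SD, against 68.3 ± 5.37 untreated) and little for TBK1 (25.8 ± 0.826 against 22.4 ± 0.383). Most of these estimates were not recomputed without emetine replicate 3, so how far the shared direction rests on that library was not tested. Of the 10 genes, 1 passed. MAP3K14 encodes NIK, the kinase that starts the alternative pathway through p100. It measured 9.28, 9.91 and 9.62 CPM untreated and 19.5, 22.6 and 24.0 CPM with emetine, with no overlap. Its log2 fold change was 1.197 (SE 0.12, adjusted p = 0.00459 from edgeR), and the adjusted p was 0.0507 to 0.0744 when an untreated library was left out. Its fraction new fell from 77.8% ± 9.49 to 50.1% ± 0.879 (adjusted p = 0.000564 from limma), and its unlabeled reads rose by a log2 fold change of 2.19 (adjusted p = 0.00192). Without s4U it measured 10.8 CPM untreated and 26.3 CPM with emetine. Unlabeled reads of IKBKB, which encodes the IKK beta kinase and was singled out after its values were seen, rose by a log2 fold change of 0.40 (adjusted p = 0.0413 from limma), a call lost without any single library except emetine replicate 3.

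None of the 5 genes of the ubiquitin ligase for IkappaB passed in any of the 4 tests over all 6 libraries. The smallest p-values for level were those of SKP1, a linker of the ligase, with 208 ± 3.61 CPM untreated and 169 ± 24.6 CPM with emetine (adjusted p = 0.201), and of RBX1, its RING subunit, with 193 ± 25.5 and 157 ± 31.4 CPM (adjusted p = 0.279). Emetine replicate 3 was the lowest library for both, at 141 CPM for SKP1 and 120 CPM for RBX1. Without it the log2 fold change moved from -0.29 to -0.17 for SKP1, which then passed (adjusted p = 0.0464 from edgeR), and from -0.30 to -0.14 for RBX1 (adjusted p = 0.272). Genes called lower in level then numbered 525 in place of 6. Of 17 other negative regulators, none passed for level or fraction new and 2 passed as higher for unlabeled reads, beside 7.3% of all genes. N4BP1, a restraint on NF-kappaB signaling, had 33.1 ± 3.41 and 45.5 ± 4.37 CPM, and NKRF, a repressor that binds near kappaB sites, 110 ± 3.46 and 136 ± 11.7 CPM. Their unlabeled reads rose by log2 fold changes of 0.61 (adjusted p = 0.0227 from limma) and 0.51 (adjusted p = 0.0327). Both calls were lost without untreated replicate 2 (adjusted p = 0.0884 for N4BP1 and 0.152 for NKRF) and without untreated replicate 3 (0.109 and 0.171), and that of NKRF also without emetine replicate 1 (0.0699).

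Of 4 other Rel and IkappaB family genes, none of the 4 tested for level passed. REL, which encodes the subunit c-Rel, measured 3.26, 3.98 and 3.44 CPM untreated and 3.65, 3.22 and 11.1 CPM with emetine. The last value, from emetine replicate 3, set its log2 fold change of 0.72 (adjusted p = 0.334), which was -0.06 without that library. BCL3, a nuclear IkappaB protein, measured 0.566 to 1.17 CPM against 0.863 to 1.77 CPM (adjusted p = 0.311).

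Of 25 genes that NF-kappaB is known to induce, 23 were in the table and 14 had enough counts. None of these passed for level, with a median log2 fold change of 0.04. Of 9 tested for fraction new, 8 estimates were below 0, where the median of all genes tested was -0.16. The 1 that passed, beside 4.83% of all genes lower, was IRF1, which encodes a transcription factor of the interferon response. Its fraction new fell from 71.6% ± 3.88 to 46.2% ± 3.08 (difference in logit -1.08, SE 0.24, adjusted p = 0.00265 from limma). Its level was 7.39 ± 1.1 and 10.2 ± 0.896 CPM, and its unlabeled reads rose by a log2 fold change of 1.21 (adjusted p = 0.00267). The adjusted p for its fraction new was 0.0700 without emetine replicate 2 and 0.0507 without emetine replicate 3.

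The genes whose levels over the 8 libraries were most like those of NFKBIA, among 9585 with a mean of at least 10 CPM, were SDF2, EFNA5 and UPP1, at Euclidean distances of 0.21 to 0.23 of gene-centered log2(CPM + 0.5), against a median of 0.67. For NFKBIE they were LRRC42, EME1 and IQCB1 (0.092 to 0.15, median 0.57), and for NFKB1 MIEF1, TADA2B and MYBBP1A (0.060 to 0.079, median 0.55). Emetine replicate 3 was the lowest of the 8 libraries for NFKBIA, SDF2, EFNA5 and UPP1. It was the highest for NFKB1, MIEF1, TADA2B and MYBBP1A. SDF2 measured 40.1, 42.3 and 31.5 CPM in emetine replicates 1 to 3, and MIEF1 170, 171 and 213 CPM. How much of the likeness came from that library was not tested. SDF2, EFNA5 and UPP1 had untreated fractions new of 8.69% to 21.2%, against 94.5% to 96.0% for NFKBIA. MIEF1, the nearest to NFKB1, had 24.6% to 31.5%, overlapping the 18% to 25.7% of NFKB1.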

How the data were processed

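Members and gene lists were chosen with earlier results of these data known. For the 1 h experiment, the authors trimmed adapters with cutadapt, mapped reads to hg38 with hisat-3n and tallied T positions and T-to-C conversions per read with bam2bakR. Their deposited table holds unnormalized counts of reads, which were summed here per gene and library. No member shared canonical exon bases with another gene of the table. For the 2 h experiment, the deposited signal values are the authors' means of counts divided by spike-in size factors over all 2 h libraries; their fold changes, standard errors and p-values were not used.

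Levels were tested with edgeR 4.0.16 (TMM, quasi-likelihood; genes over 100 counts in total, R 4.3.3). Fraction new was fitted per gene and library with scipy 1.17.1 and numpy 2.4.6 under Python 3.11.15 as a 2-component binomial mixture bounded at 0.001 and 0.999, with the background rate of the library without s4U of the same treatment (0.0504% or 0.0521% of T positions) and a new-read rate fitted per library (8.49% to 9.53%), and its logit was tested with limma 3.58.1 (trend, robust; at least 100 reads in each library). bakR, which the study used, was not run. Labeled and unlabeled CPM were tested with limma after adding 0.5. All p-values were adjusted by Benjamini-Hochberg over all genes tested. Libraries held 27416189 to 48852046 reads, and intervals cover counting error only. Same-numbered replicates showed no shared deviation (r = 0.0894, 0.00684 and -0.137). Because emetine replicate 3 deviated with transcript length, this cannot decide whether the numbers pair samples. The main tests treated the replicates as unpaired. Tests were checked on simulated data. Symbols were matched to GENCODE 44 (17147 by symbol, 1167 by an older symbol, 908 unmatched). Alternatives covered normalization, filters, pseudocounts, DESeq2 1.42.0, length and GC trends (mgcv 1.9.3), the replicate block and leaving out each library. Named were the 9 members, of each pathway list up to 5 genes with the smallest p among those past the threshold for level or fraction new (if none, the 2 with the smallest p for level), and the 3 genes nearest to NFKBIA, NFKBIE and NFKB1. Figures used matplotlib 3.10.9.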

Additional observations from a re-analysis of the deposited data

How the results depend on the processing

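The count of members called was 0 in each test, and it stayed 0 under every alternative run except 2. For fraction new it ranged from 0 to 3 when 1 library was left out, with 3 (NFKB1, NFKBIA, NFKBIE) without untreated replicate 1, and for unlabeled reads from 0 to 1, with 1 (NFKBIE) without emetine replicate 3. Of 424 alternative values of the members, 396 kept direction and side of the threshold, 4 newly passed it and 24 changed sign. Of 357 values of the pathway genes, 294 kept both, 39 no longer passed, 18 newly passed and 6 changed sign. Whether the replicate number marks shared samples is not known. With it as a block, 0 members were called in the tests of level, fraction new, labeled and unlabeled reads. The genes called higher in level then numbered 75 in place of 365. Under that block the adjusted p for unlabeled reads was 0.112 for TRAF2, 0.120 for IKBKB, 0.0993 for N4BP1 and 0.108 for NKRF.

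Spike-in scaling turned the log2 fold change in level to 0.39 for NFKBIA, 0.51 for NFKBIB, 0.66 for RELA, 0.29 for RELB, 0.38 for RBX1 and 0.38 for SKP1, with the median of all genes at 0.71. These values had adjusted p of 0.290 (RELA) to 0.597 (RELB) in edgeR, and the spike-in shares of the groups overlapped. The values of NFKB2 and RELA lay near 0. NFKB2 was -0.019 with DESeq2 size factors, -0.020 with DESeq2's Wald test, -0.000102 over 8 libraries, -0.0029 with length and GC trends removed and -0.0044 with the block as well. RELA was 0.014 over 8 libraries, 0.011 with these trends removed and 0.011 with the block as well, and NFKBIB 0.025 and 0.020 under the latter. Fraction new of RBX1 was 0.07 when centered. Leaving out 1 library gave ranges across 0 for the level of NFKB2 (-0.034 to 0.041), RELA (-0.034 to 0.027) and REL (-0.056 to 1.03), for the fraction new of RELA (-0.30 to 0.0051) and RBX1 (-0.22 to 0.046), for unlabeled reads of NFKB2 (-0.024 to 0.087) and RELA (-0.0096 to 0.064), and for the effect with against without s4U of NFKB1 (-0.095 to 0.12) and NFKB2 (-0.020 to 0.070). The cause was not tested.

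Counts over all genes depended on the setting. Genes higher in level numbered 365, against 60 with spike-in scaling, 820 with DESeq2's Wald test, 646 over 8 libraries, 747 with length and GC trends removed and 4 to 1367 with 1 library left out, and genes lower numbered 6, against 0, 156, 30, 527 and 0 to 525. Genes lower in fraction new numbered 520, against 298 with at least 50 reads, 227 with at least 500 reads, and 94 to 2524 with 1 library left out. Genes higher in fraction new numbered 23, against 14, 14, 126 when centered, 40 with the block and 10 to 41. Genes higher in unlabeled reads numbered 786, against 350 with the block and 271 to 1476, and genes lower 10, against 4 to 383. Genes lower in labeled reads numbered 68, against 11 without a filter and 2 to 1733, and genes higher 28, against 13 to 64. For the effect with against without s4U, genes higher numbered 0, against up to 177. TNFAIP3, NFKBIZ and RELB, at 48 to 228 reads per library, are limited by depth.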
